A study of Homo sapiens and Mus musculus with 4 samples.

Results

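The respiratory chain subunits encoded in the nucleus were examined as a set of 48 genes, chosen by name and grouped by the complex they build: 30 for complex I, 4 for complex II, 7 for complex III and 7 for complex IV. All 48 human symbols were found among the 32738 human genes of the table, and all 48 mouse genes of the same symbols were found among its 27998 mouse genes. The rule itself uses no measured value, though the list was made with earlier results of these data known.

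The chain sits in the inner mitochondrial membrane and passes electrons from NADH and succinate to oxygen. Complex I (NADH dehydrogenase) and complex II (succinate dehydrogenase, also an enzyme of the citric acid cycle) feed electrons to ubiquinone, complex III passes them to cytochrome c, and complex IV hands them to oxygen, while complexes I, III and IV pump protons that drive ATP synthase. Complexes I, III and IV mix subunits from the nucleus with subunits encoded by mitochondrial DNA, whereas complex II is nuclear throughout.

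Polyadenylated RNA was sequenced in bulk from 4 untreated lymphocyte lines of a commercial repository, with 1 library per line: the human T-cell leukemia lines Jurkat (CD4+) and TALL104 (CD8+), the mouse T-cell lymphoma line EL4 and the mouse B-lineage hybridoma IVA12. Jurkat and EL4 grew in RPMI medium (EL4 with 2-mercaptoethanol), TALL104 in IMDM with interleukin-2 and IVA12 in DMEM, so medium and line cannot be told apart. The study used these libraries as the bulk reference for single-cell methods. Values are FPKM, which divide a gene's fragments by its length and by the library total. The totals recovered from them, in reads, were 34783047 for Jurkat and 28345951 for TALL104, 32149319 for EL4 and 25286728 for IVA12.

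CD3E, a chain of the T-cell receptor complex, marks both human lines as T cells without telling them apart, at 166 FPKM in Jurkat and 233 FPKM in TALL104. Of the B-cell receptor chains, CD79A was also present, at 16.5 FPKM in Jurkat and 24.6 in TALL104. CD79B stood at 4.80 FPKM in TALL104 but only 0.0415 in Jurkat. Cd3e was 63.6 FPKM in EL4 and 0.0275 in IVA12. The 4 T-lineage genes checked (CD3D, CD3E, CD3G and CD2) ranged from 70.4 to 400 FPKM in Jurkat and from 15.6 to 250 in TALL104. Their mouse counterparts ranged from 17.8 to 197 FPKM in EL4 and from 0.0275 to 9.99 in IVA12. IVA12 held the B-lineage genes Cd79b at 163 FPKM and Ms4a1 at 46.5, but Cd79a at 0.0543. Of the 4 B-lineage genes checked, only Cd79b and Ms4a1 reached 1 FPKM in IVA12, and the lowest stood at 0.0257.

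With 1 library per line there was no spread between replicates and no test was possible. Each ratio is given as log2 of FPKM + 1 in Jurkat over TALL104, or in EL4 over IVA12, and a gene was counted as different above 1.5-fold on that scale. Intervals are 95% intervals for the counting of reads only. In bulk RNA, fewer cells carrying a transcript and less of it per cell cannot be told apart.

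Most respiratory chain subunits were higher in Jurkat than in TALL104. The median log2 ratio of the 48 human members was 0.73, with a range of -0.57 to 1.73, against 0.10 for the 12214 human genes with at least 1 FPKM in either line. Of the 48, 29 were more than 1.5-fold higher in Jurkat, where 34.2% of those 12214 genes were, and 0 were that much higher in TALL104, where 28.4% were. Among the 6286 genes with at least 10 FPKM in either line, the shares were 37.1% and 27.8%, with a median log2 ratio of 0.20. The count of 0 depends on the constant added to FPKM, because NDUFA7 and NDUFB8 passed 1.5-fold toward TALL104 with 0.1 in place of 1. After scaling by the median ratio, 2 members passed 1.5-fold toward TALL104 and 25 toward Jurkat. The interval of the FPKM ratio lay above 1 for 43 members and below 1 for 3.

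The summed FPKM of the 48 members was 2031 in Jurkat and 1071 in TALL104, a ratio of 1.90. The sums made up 0.801% and 0.424% of each library's human FPKM. Genes encoded by mitochondrial DNA held 14.9% of the human FPKM in Jurkat and 20.6% in TALL104. With both libraries set to equal totals without those genes, the median member ratio was 0.63.

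**Figure D1:**
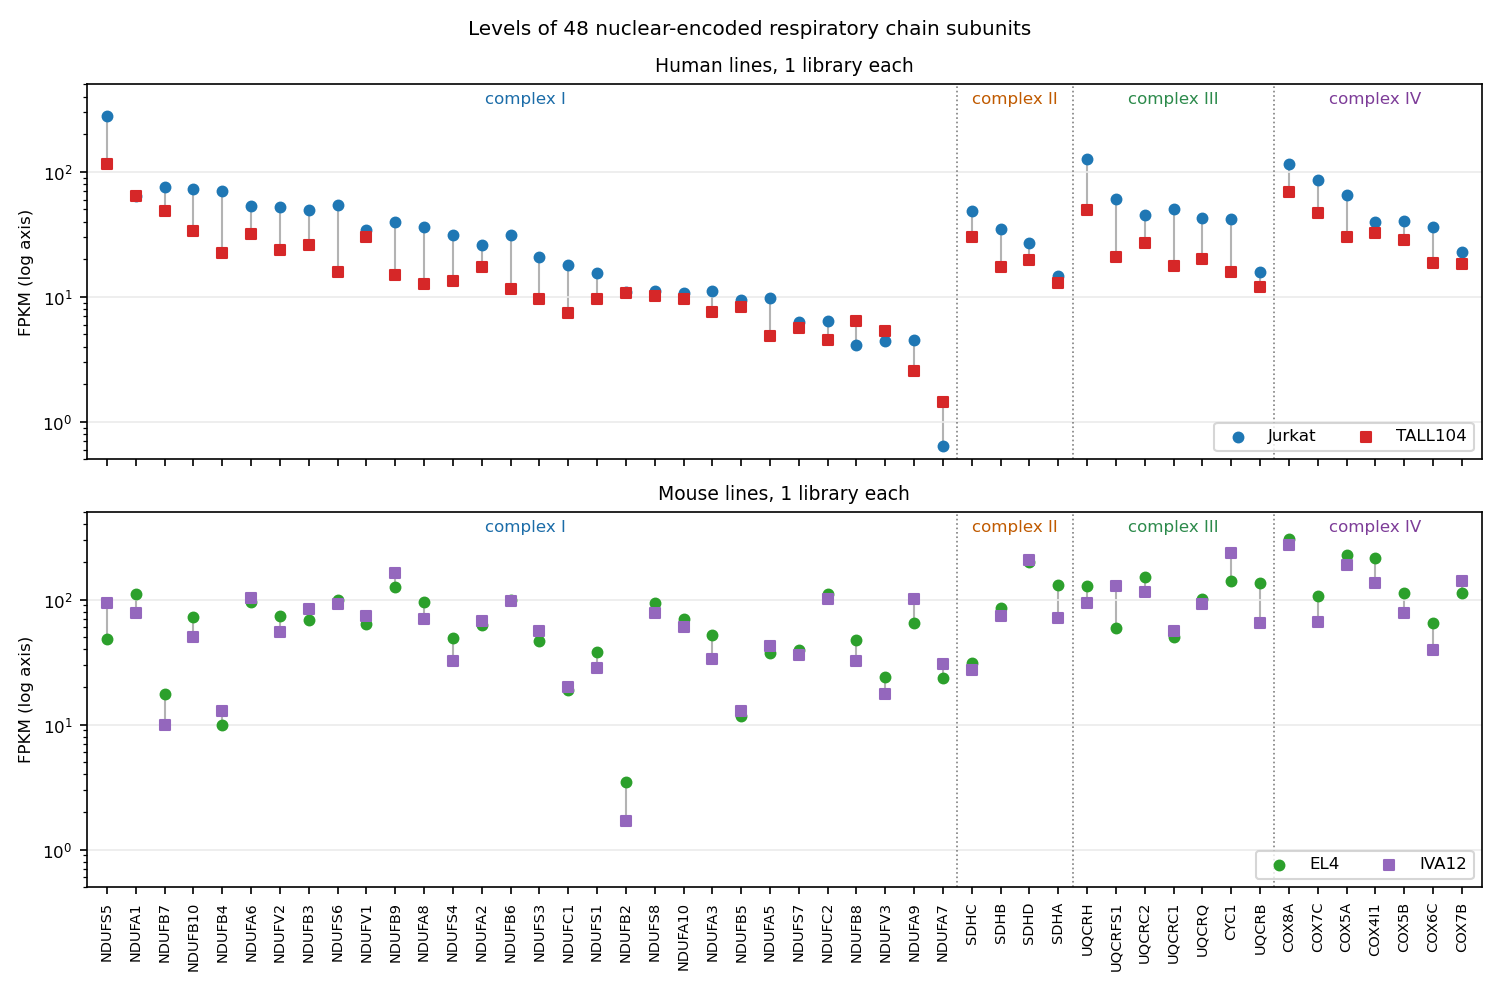
FPKM (log axis) of each of the 48 subunits in the human lines (top) and the mouse lines (bottom), with 1 library per line and a gray line joining the values of a gene; members are ordered by complex and by mean human FPKM. The Jurkat point lies above the TALL104 point for 45 of 48 members, while in mouse EL4 is above IVA12 for 30.

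Complex III showed the highest median of the human complexes, at 1.35, with 6 of 7 members more than 1.5-fold higher in Jurkat. UQCRFS1, the Rieske iron-sulfur protein that carries electrons within the complex, was 60.5 FPKM in Jurkat and 20.8 in TALL104, an FPKM ratio of 2.92 with an interval of 2.71 to 3.14. CYC1, the cytochrome c1 that hands electrons to cytochrome c, was 41.9 and 15.8 FPKM, a log2 ratio of 1.35. For both catalytic subunits the whole interval of the FPKM ratio lay above 2.

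The core proteins of complex III, which form its matrix face, split by size of change. UQCRC1 stood at 50.9 FPKM in Jurkat and 17.8 in TALL104, a log2 ratio of 1.47, and UQCRC2 at 45.6 and 26.8, a log2 ratio of 0.74. Among the small accessory subunits, the hinge protein UQCRH was the highest of the complex, at 128 and 49.6 FPKM, a log2 ratio of 1.35. For UQCRH, 17.8% of windows of read length also occur in transcripts of another gene. UQCRQ followed with 42.7 and 20.1 FPKM. UQCRB, at 15.9 and 12.1 FPKM, was the only member of the complex within 1.5-fold. The summed complex III FPKM was 385 in Jurkat and 163 in TALL104, a ratio of 2.36, against 1.91 for complex I, 1.67 for complex IV and 1.57 for complex II.

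Complex I had a median log2 ratio of 0.64, with 17 of 30 members more than 1.5-fold higher in Jurkat, and it held both the largest change and the 3 members that were lower in Jurkat. NDUFS6, an accessory subunit of the NADH-oxidizing arm (hg19 chr5:1801521-1816162, plus strand), was 54.7 FPKM in Jurkat and 15.8 in TALL104. Its log2 ratio was 1.73 and its FPKM ratio lay between 3.17 and 3.77. The other accessory NDUFS subunits moved the same way, with NDUFS4 at 31.1 and 13.3 FPKM and NDUFS5 at 279 and 115. NDUFS5 was the highest of all 48 human members in both lines.

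The 6 core subunits of complex I, most of which carry the flavin or iron-sulfur clusters, had a lower median of 0.40, and 3 of them passed 1.5-fold. NDUFV2 was 52.6 FPKM in Jurkat and 23.6 in TALL104, and it is uncertain, since 88.6% of its read-length windows occur in another gene. NDUFS3 was 20.8 and 9.61, and NDUFS1 was 15.5 and 9.66. The flavin-binding NDUFV1 stood at 34.0 and 30.2 FPKM, and NDUFS7 and NDUFS8, whose clusters lie nearest ubiquinone, had log2 ratios of 0.15 and 0.11. Core subunits of the same arm therefore ranged from 0.11 to 1.12.

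The NDUFB subunits, which lie in the proton-pumping membrane arm, had a median of 0.91, and 6 of 9 passed 1.5-fold. NDUFB4 was the largest, with 70.3 FPKM in Jurkat and 22.2 in TALL104, a log2 ratio of 1.62. NDUFB2 stood at 11.0 and 10.7 FPKM and its interval included a ratio of 1. For NDUFB2, 76.1% of windows of read length also occur in transcripts of another gene.

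Of the 9 NDUFA subunits, which are spread over both arms, 4 passed 1.5-fold and the median was 0.55. NDUFA8, an intermembrane-space subunit, was 36.4 FPKM in Jurkat and 12.7 in TALL104, a log2 ratio of 1.45. NDUFA1, a small subunit of the membrane arm, did not differ, with 64.0 and 63.7 FPKM and an FPKM ratio between 0.935 and 1.08.

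The 3 members lower in Jurkat were NDUFA7, NDUFB8 and NDUFV3. NDUFA7 (hg19 chr19:8373652-8386259, minus strand) was the lowest human member, at 0.639 FPKM from 35 reads in Jurkat and 1.43 FPKM from 64 reads in TALL104. NDUFB8 was 4.09 and 6.36 FPKM. These values are uncertain, since same-strand exons of another gene cover 32.5% of NDUFA7 and 33.8% of NDUFB8, and 73.3% and 67.3% of their read-length windows occur in another gene. NDUFV3, with no such overlap, was 4.42 FPKM in Jurkat and 5.36 in TALL104, with the FPKM ratio between 0.753 and 0.902.

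Complex IV, whose nuclear subunits surround a catalytic core encoded by mitochondrial DNA, had a median of 0.74, with 4 of 7 members past 1.5-fold. COX5A showed the largest ratio, with 65.4 FPKM in Jurkat and 30.2 in TALL104, a log2 ratio of 1.09. COX8A, the highest of the complex, was 115 and 68.5 FPKM, with same-strand exons of another gene over 35.4% of it. COX4I1, the largest nuclear subunit, was 39.6 and 32.3 FPKM, a log2 ratio of 0.29. The ratios of COX6C and COX7C passed 1.5-fold, and those of COX5B and COX7B did not.

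Complex II had a median of 0.56, with 2 of 4 members past 1.5-fold. SDHB, the iron-sulfur subunit, was 35.2 FPKM in Jurkat and 17.4 in TALL104, a log2 ratio of 0.98. The membrane anchors followed, SDHC at 49.1 and 30.1 FPKM and SDHD at 27.0 and 19.7. SDHA, the flavoprotein that oxidizes succinate, was 14.6 and 12.8 FPKM, a log2 ratio of 0.18, and 65.5% of its read-length windows occur in another gene.

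**Figure D2:**
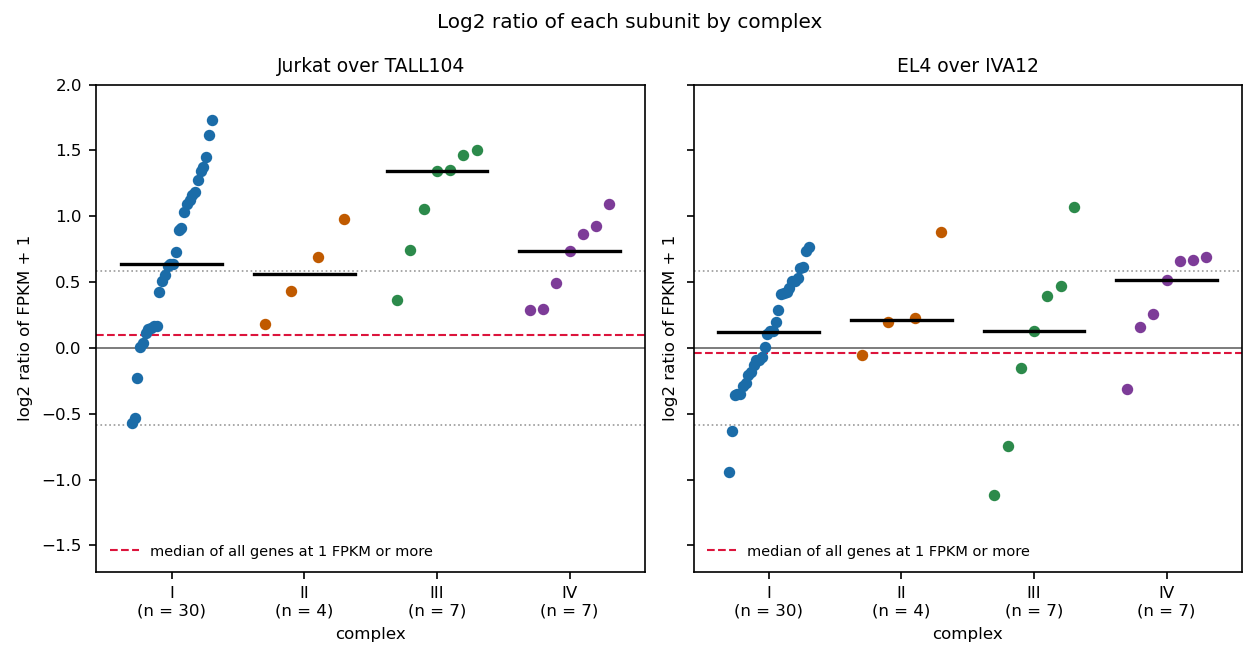
Log2 ratio of FPKM + 1 for each subunit, by complex, in Jurkat over TALL104 (left) and EL4 over IVA12 (right), with 1 library per line; black bars are medians, dotted lines mark 1.5-fold and the dashed line is the median of all genes with at least 1 FPKM in either line. The human medians lie between 0.56 and 1.35 and the mouse medians between 0.12 and 0.52.

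Promoters of the human members were searched for the core motifs of factors known to drive respiratory genes: NRF1 (GCATGCGC), the ETS family that includes GABPA (CCGGAAG) and YY1 (AAGATGGCG), on both strands, from 250 bases before to 50 after the RefSeq gene start (GRCh38.p14). Of the 48 members, 40 had such windows, 47 in all. NDUFC2, SDHC, UQCRB, NDUFB5, NDUFB9, COX6C, NDUFS5 and CYC1 had none. The NRF1 letters were in 9 of 47 windows (19.1%, against 3.05% of all 35116 windows), the ETS letters in 11 (23.4% against 10.3%) and the YY1 letters in 8 (17.0% against 1.75%). Over the 22199 windows of protein-coding genes, the shares were 3.74% for NRF1, 12.8% for ETS and 2.41% for YY1. The 8 YY1 matches began between bases 11 and 26 after the start. The 100 bases before the start are shown for 1 member of each complex, the one with the largest Jurkat ratio among those with a match there, with the NRF1 letters (NDUFS6) or the ETS letters (the others) in capitals, all on the plus strand.
NDUFS6, chr5:1801307-1801406: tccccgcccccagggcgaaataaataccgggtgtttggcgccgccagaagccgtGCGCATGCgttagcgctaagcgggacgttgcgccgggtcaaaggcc
SDHD, chr11:112086773-112086872: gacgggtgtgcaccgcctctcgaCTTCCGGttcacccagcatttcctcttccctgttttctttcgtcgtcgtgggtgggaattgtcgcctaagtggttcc
UQCRH, chr1:46303598-46303697: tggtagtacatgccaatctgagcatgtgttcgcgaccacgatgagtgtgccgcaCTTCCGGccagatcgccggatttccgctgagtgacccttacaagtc
COX8A, chr11:63974520-63974619: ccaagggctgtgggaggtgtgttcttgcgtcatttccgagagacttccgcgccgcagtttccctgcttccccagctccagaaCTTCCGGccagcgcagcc

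All 4 matches are the reverse complement of the letters searched. The 22 members with a match of any motif had a median log2 ratio of 0.73 between Jurkat and TALL104, with 15 more than 1.5-fold higher in Jurkat, and the 18 with none had 0.65, with 9 higher. This difference was not tested. A match of letters is a description of the window, not a bound site. NRF1 was 9.35 FPKM in Jurkat and 9.15 in TALL104, GABPA 18.3 and 15.4, and YY1 30.0 and 24.5. GABPB1, the partner of GABPA, was 13.5 and 7.73 FPKM, a log2 ratio of 0.73, which passed 1.5-fold.

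Between EL4 and IVA12 the subunits differed less, with more of them higher in EL4 than in IVA12. The median log2 ratio of the 48 mouse members was 0.18, with a range of -1.11 to 1.07, against -0.04 for the 10801 mouse genes with at least 1 FPKM in either line. Of the 48, 9 were more than 1.5-fold higher in EL4, where 23.8% of those genes were, and 4 were higher in IVA12, where 26.5% were. The interval of the FPKM ratio lay above 1 for 29 members and below 1 for 15. Among the 5975 genes with at least 10 FPKM in either line, the shares were 22.9% and 24.5%. The summed member FPKM was 4148 in EL4 and 3834 in IVA12, a ratio of 1.08.

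The mouse complex III held the widest spread of the 4 complexes. Uqcrb, an accessory subunit, was 137 FPKM in EL4 and 64.7 in IVA12, a log2 ratio of 1.07, with 15.4% of its read-length windows in other genes. The catalytic subunits were the reverse. Uqcrfs1 (mm10 chr13:30540308-30545362, minus strand) was 59.1 FPKM in EL4 and 129 in IVA12, a log2 ratio of -1.11 with the FPKM ratio between 0.436 and 0.481, and Cyc1 was 141 and 238 FPKM, a log2 ratio of -0.75. The complex III sums were 771 and 790 FPKM.

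Among the mouse subunits of complex I, 24 of 30 stayed within 1.5-fold and the median was 0.12. The 4 higher in EL4 were Ndufa3, Ndufb2, Ndufb7 and Ndufs4. Ndufb7, a membrane-arm subunit, was 17.5 FPKM in EL4 and 9.88 in IVA12, a log2 ratio of 0.77. Ndufb2, the lowest mouse member, had a log2 ratio of 0.74, but with no constant added its FPKM ratio of 2.06 was above the 1.77 of Ndufb7. The other direction held Ndufs5, at 48.2 and 93.3 FPKM (log2 ratio -0.94), and Ndufa9, at 65.2 and 101.4 FPKM (-0.63). For Ndufs5, 19.7% of read-length windows occur in another gene. All 6 core subunits were within 1.5-fold.

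Complex IV had a median of 0.52, with 3 of 7 members past 1.5-fold toward EL4. The median was 0.25 with the further nuclear subunits added and -0.076 over the 2 members that share no read-length window or same-strand exon with another gene. Cox4i1 was 217 FPKM in EL4 and 137 in IVA12, Cox6c was 64.7 and 39.7, and Cox7c was 106 and 66.4. Cox8a, the highest mouse member, was 308 and 275 FPKM. The 3 that passed all share read-length windows with other genes, Cox7c for 44.1% of windows, Cox4i1 for 8.12% and Cox6c for 7.05%.

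In complex II the flavoprotein Sdha was 132 FPKM in EL4 and 71.2 in IVA12, a log2 ratio of 0.88. Sdhb stood at 86.2 and 73.3 FPKM, Sdhc at 31.3 and 27.2, and Sdhd at 199 and 207. Sdha was therefore the only mouse complex II subunit past 1.5-fold, whereas SDHA was the least changed of the human ones.

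The calls of both pairs were set side by side. Of the 29 higher in Jurkat than in TALL104, 4 were higher in EL4, 4 were higher in IVA12 and 21 were within 1.5-fold in mouse. The 4 called toward Jurkat and toward IVA12 were UQCRFS1, CYC1, NDUFS5 and NDUFA9, which are all the members higher in IVA12. Of these, human NDUFA9 passed narrowly, at 1.56-fold on FPKM + 1, with 4.51 FPKM in Jurkat and 2.54 in TALL104. Other genes hold 12.2% of its read-length windows, and their same-strand exons cover 10.6% of it. Another 5 were higher in EL4 and within 1.5-fold in human, and 14 were within 1.5-fold in both. These counts are a description, and whether the pairs are related was not tested. Over all 48 mouse members, 9 were higher in EL4 and 4 in IVA12, and over the 10801 mouse genes the shares were 23.8% and 26.5%. The same overlap of calls over all genes was not counted.

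**Figure D3:**
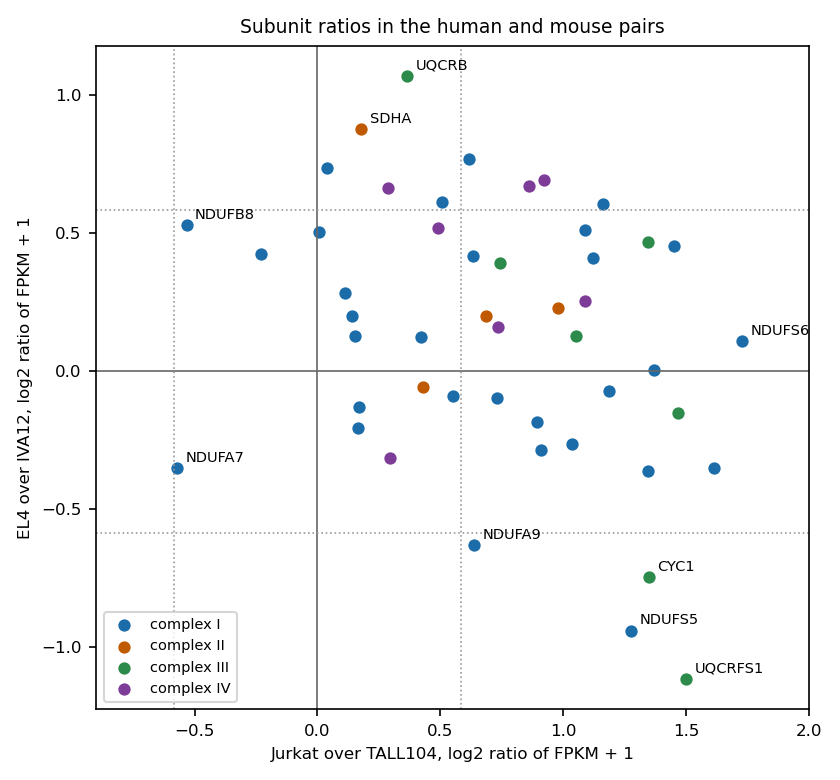
Log2 ratio of FPKM + 1 of each of the 48 subunits in Jurkat over TALL104 (horizontal) and in EL4 over IVA12 (vertical), colored by complex, with dotted lines at 1.5-fold and 1 library per line. UQCRFS1, CYC1, NDUFS5 and NDUFA9 lie at the lower right, past 1.5-fold toward Jurkat and toward IVA12.

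The pattern of levels among members was shared within a species more than between species. Over the 48 members, Pearson's r of log2(FPKM + 1) was 0.930 between Jurkat and TALL104, 0.926 between EL4 and IVA12, and 0.302 to 0.346 between a human and a mouse line. Mean FPKM was higher in mouse for 43 of 48 members, by a median log2 difference of 1.61 (3.06-fold), against 0.14 over 7971 symbols shared by both species with at least 1 FPKM in each. COX8A was among the highest in both species, ranking 2 in human and 1 in mouse, and NDUFA7 ranked 48 and 42.

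Gene length also differed between the species. The length recovered from the FPKM had a median of 1958 bases for the human members and 1429 for the mouse members, and the human gene was longer for 34 of 48. UQCRB was counted over 9715 bases in human and 876 in mouse. On reads scaled to the library total alone, with no length, the median difference was 1.80-fold, and per length of the principal transcript it was 2.30-fold.

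The members that changed rank most between species were NDUFB7, NDUFB4 and NDUFC2, all accessory subunits of complex I. NDUFB7 averaged 62.2 FPKM in the human lines and 13.7 in the mouse lines, with lengths of 531 and 4522 bases. Its direction turned on the other scales, with a log2 mouse over human level of -2.18 in FPKM, 0.91 without length scaling and 0.69 per principal transcript. NDUFB4 averaged 46.2 and 11.5 FPKM and was lower in mouse on all 3 scales. The length of mouse Ndufb4 was recovered as 390 bases, against 1916 annotated exon bases. A factor shared by its reads and length may thus have been missed, which would make its mouse level too low on the scales other than FPKM. Another gene also holds 33.3% of its read-length windows. NDUFC2 went the other way, from 5.46 to 107 FPKM, and was higher in mouse on all 3 scales. Same-strand exons of another gene cover 18.6% of human NDUFC2, and 16.0% of its read-length windows occur in another gene.

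**Figure D4:**
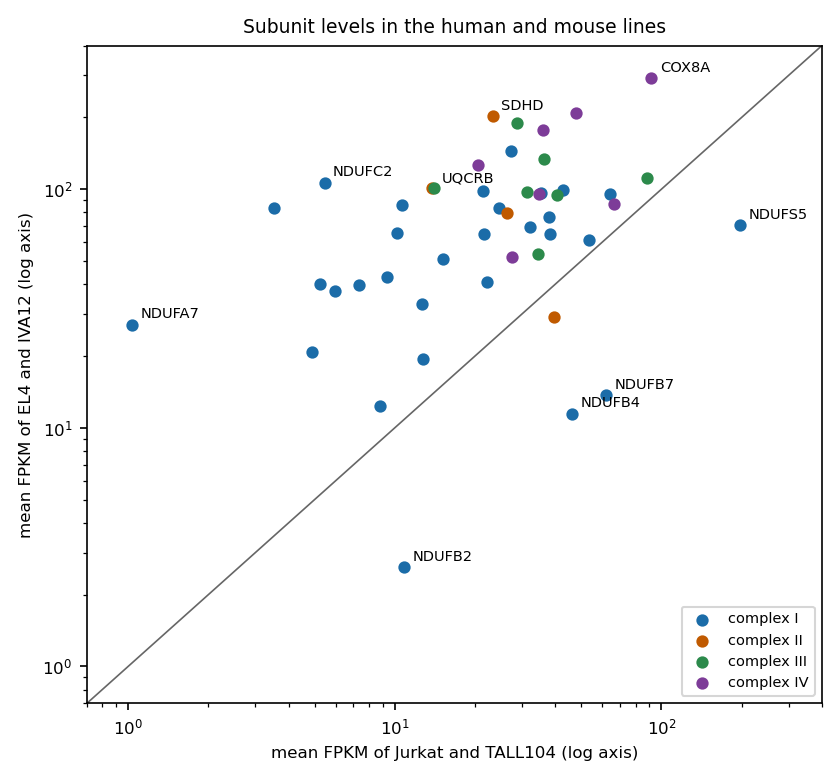
Mean FPKM of the 2 human lines (horizontal) against that of the 2 mouse lines (vertical) for each of the 48 subunits, on log axes, colored by complex, with the diagonal of equal levels. Most points (43 of 48) lie above the diagonal.

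Other genes of the pathway were read beside the members. For the counts of each human list, the shares over the 12214 human genes were 34.2% higher in Jurkat and 28.4% higher in TALL104. Of 13 further nuclear subunits of complexes I, III and IV, 7 were more than 1.5-fold higher in Jurkat and 1 in TALL104, with a median of 0.68. NDUFAB1, the acyl carrier protein of complex I, was 51.9 FPKM in Jurkat and 13.7 in TALL104. NDUFA13 was the exception, at 0.369 and 1.26 FPKM. Of 16 ATP synthase subunits, 9 were higher in Jurkat and 0 in TALL104, with a median of 0.91.

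CYCS, the cytochrome c that links complexes III and IV, exceeded every human member in its ratio, with 68.1 FPKM in Jurkat and 15.1 in TALL104, a log2 ratio of 2.10. Of 43 assembly factors, 22 were higher in Jurkat and 2 in TALL104, and NDUFAF2, which helps build complex I, was 24.7 and 5.75 FPKM. Of 70 mitochondrial ribosomal proteins, 48 were higher in Jurkat and 3 in TALL104, with a median of 0.88. Of 14 enzymes of the citric acid cycle, 8 were higher in Jurkat, led by the mitochondrial isocitrate dehydrogenase IDH2 at 152 and 32.1 FPKM, and 1, the oxoglutarate dehydrogenase subunit DLST, was higher in TALL104, at 14.3 and 30.1 FPKM. Of 13 regulators of mitochondrial biogenesis, 6 were higher in Jurkat and 0 in TALL104.

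The subunits encoded by mitochondrial DNA had a median on the other side of 0 from the nuclear ones. Their median log2 ratio was -0.37 over 13 genes, with 4 more than 1.5-fold higher in TALL104. MT-CO1, the catalytic subunit of complex IV, was 3808 FPKM in Jurkat and 12492 in TALL104. Of the other 9, MT-ND6, a complex I subunit encoded on the strand opposite the other subunits, passed 1.5-fold toward Jurkat, at 1669 FPKM in Jurkat and 188 FPKM in TALL104. The ATP synthase subunits MT-ATP8 (5559 and 4413 FPKM) and MT-ATP6 (5004 and 4903 FPKM) had intervals above a ratio of 1 but stayed within 1.5-fold.

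For EL4 and IVA12, 5 of these lists had medians near 0 or below it. For the counts of each mouse list, the shares over the 10801 mouse genes were 23.8% higher in EL4 and 26.5% higher in IVA12. ATP synthase subunits had a median of 0.04, with 0 of 15 higher in EL4 and 1 in IVA12, and the 12 further nuclear subunits had -0.05, with 1 in each direction. The assembly factors had -0.07, with 4 of 43 higher in EL4 and 11 in IVA12. The mitochondrial ribosomal proteins had -0.34, with 1 of 72 higher in EL4 and 22 in IVA12. The 13 mitochondrially encoded genes had -0.14, with 2 higher in EL4 and 5 in IVA12, and their levels ranged from 1.79 to 6850 FPKM in EL4. The members' median of 0.18 was above that of these 5 lists in mouse but not that of the citric acid cycle enzymes, and the human median of 0.73 was below that of ATP synthase and the mitochondrial ribosome in human.

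**Figure D5:**
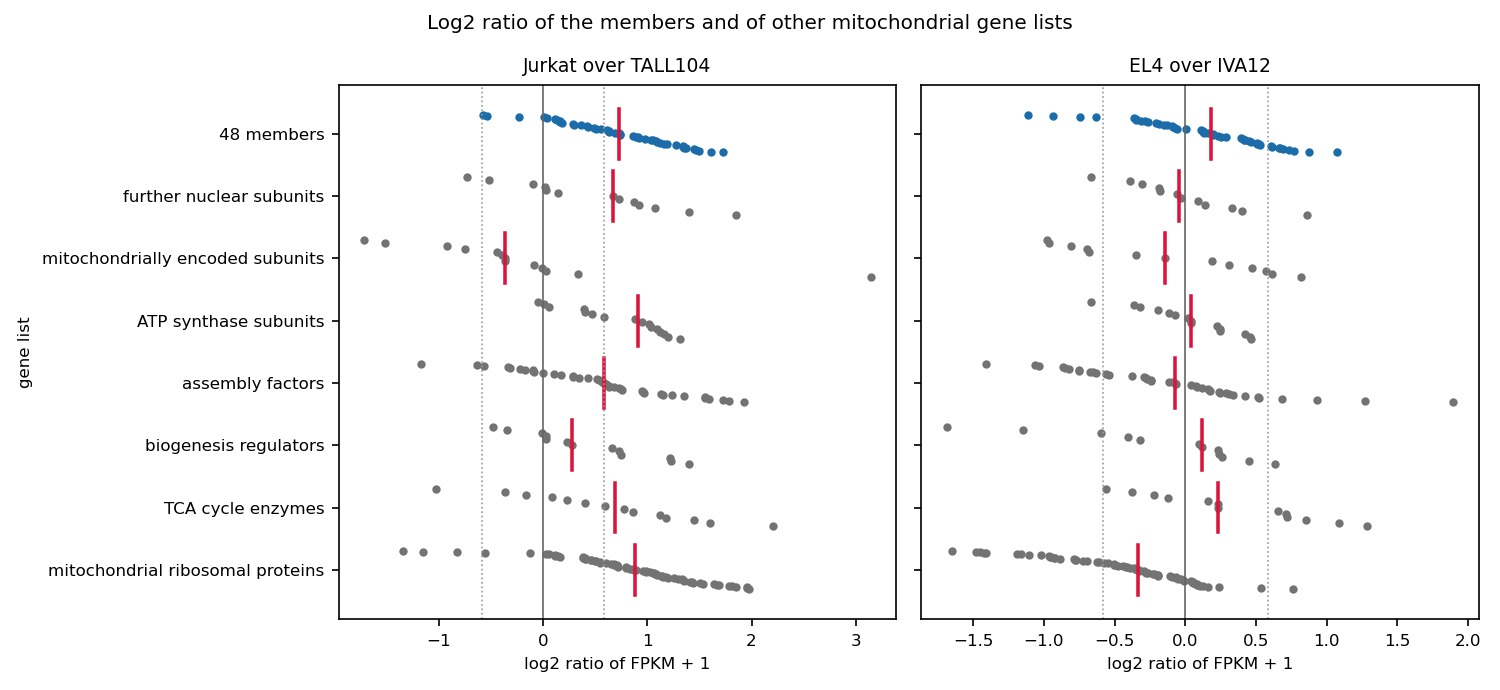
Log2 ratio of FPKM + 1 for the 48 members (blue) and for other mitochondrial gene lists (gray) in Jurkat over TALL104 (left) and EL4 over IVA12 (right), with red bars at the medians and dotted lines at 1.5-fold; genes listed at 0 in either line are left out of the points but kept in the medians, and the horizontal scales differ. The mitochondrially encoded subunits have a median of -0.37 in the human pair, where the members have 0.73.

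Citric acid cycle enzymes in mouse had a median of 0.23, with 6 of 14 higher in EL4 and 1, Idh2, higher in IVA12. Idh2 was listed at 0 in EL4 and at 59.4 FPKM in IVA12. The biogenesis regulators had a median of 0.12, with 2 of 13 higher in EL4 and 3 in IVA12. Ppargc1a, a coactivator of respiratory genes, was 2.86 FPKM in EL4 and listed at 0 in IVA12. Twnk, the mitochondrial DNA helicase, was 8.84 and 30.7 FPKM.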

How the data were processed

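Per the study's methods, the authors sequenced stranded mRNA libraries as 101-base paired reads, aligned them with STAR 2.5.1b to the combined hg19 and mm10 reference of Cell Ranger 1.2.0 and counted reads per gene with featureCounts 1.6.3. The authors deposited the result as FPKM for 4 libraries. The gene lengths, the strand setting and the treatment of multi-mapping reads are not given in the sources used here.

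Library totals and reads per gene were recovered from the FPKM, which are whole reads over length and total. A factor shared by a gene's reads and length can be missed, which makes its interval too wide. Its level without length scaling or per principal transcript is then too low. Recovered and annotated lengths were equal in 8 of 48 human members and 32 of 48 mouse members, and within 10% in 28 and 38. The annotation was GENCODE 44 and M21, while the study used Ensembl 82 and 84. For unequal lengths, a missed factor and a different annotation cannot be told apart here. In simulated data, exact reads were recovered for 85.2% (Jurkat and TALL104) and 85.6% (EL4 and IVA12) of the genes with simulated reads in either line. Poisson intervals cover counting error only, since reads without molecular identifiers are not independent molecules.

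Ratios used FPKM + 1, a 1.5-fold threshold and, for all genes, a minimum of 1 FPKM (or 10) in either line. Symbols and positions came from GENCODE 44 mapped to hg19 and M21 on mm10, and promoters from RefSeq. SCO2, MRPL45 and MRPS21 in human, and NDUFB1, ATP5ME and COA1 in mouse, were not analysed here. Genes set to be named were the highest, lowest and most changed member of each complex and all of complex II. The 3 members with the largest rank gap between species and the most changed gene of each other list were added. Not all of these genes are given above. Further members were named to describe their groups, chosen after their values were seen. Only 24 human and 32 mouse members shared no read-length window and no same-strand exon with another gene, and not every other member is flagged above. Alternatives were other constants, scalings, thresholds and member subsets. The members, lists and rules were chosen with earlier results of these data known. Python 3.11.15 was used, with pandas 2.3.3, NumPy 2.4.6, SciPy 1.17.1 and matplotlib 3.10.9.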

Additional observations from a re-analysis of the deposited data

Results flagged for a closer look

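Reads assigned to members of the other species appeared in every library, which the comparisons do not use. There were 67 reads on mouse members in the Jurkat library, 52 on mouse members in TALL104, 56 on human members in EL4 and 203 on human members in IVA12. In IVA12 these reads equaled 0.146% of the reads on its own members and fell on 41 of 48 human members, with COX6C the highest at 13 reads. In the other libraries they equaled between 0.0279% and 0.0798% of the reads on own members. The source of these reads was not tested.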

How the results depend on the processing

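With 1 library per line, no value could be checked against replicates, and depth limits mainly NDUFA7, with 35 and 64 reads. Of 127 alternative values of the medians, counts and cross-species results, 92 stayed near the main value and 35 moved. Near meant within the counting error of the middle members for a median, and within 1.5 times for a count. Cross-species correlations, and levels over members with matching lengths, were judged by a fixed difference. Cross-species levels on other scales were labeled as moved without a limit. No value past 1.5-fold reversed, and 146 of 170 alternative ratios of 34 named members stayed within counting error. The cause of each move was not tested, except that subsets hold fewer members.

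Between Jurkat and TALL104, the count higher in TALL104 went from 0 to 2 with 0.1 or 0.01 added to FPKM, with equal totals without mitochondrially encoded genes (median 0.63 over all members and 1.24 in complex III) and with scaling by the median ratio (0.62 over all, 1.24 in complex III and 0.63 in complex IV). The median ratio shifts all human log2 ratios by -0.11. Under both of these scalings the count higher in Jurkat was 25, against 29. With the further nuclear subunits the count higher in TALL104 was 1 and the complex III median 1.05. At a 2-fold threshold 17 members were higher in Jurkat. The 35 members with at least 10 FPKM in both lines had a median of 0.91, and 1.09 in complex I. The 20 without an annotated pseudogene of the same name had 0.63, with 11 higher in Jurkat and 0.49 in complex I, an alternative not run in mouse, where pseudogenes carry other names.

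Some alternatives were chosen after seeing the data. The 24 human members sharing no read-length window and no same-strand exon with another gene had a median of 0.92 with 17 higher in Jurkat, and 0.91 in complex I, 0.83 in II, 1.20 in III and 0.49 in IV. Complex III thus had the highest median here too, while complexes I, II and IV changed order. The 32 such mouse members had 4 higher in EL4, with medians of -0.15 in complex III and -0.076 in complex IV. With the further subunits the mouse medians were -0.15 in complex III and 0.25 in complex IV, and at 2-fold 1 member was higher in each mouse line. The median log2 mouse over human level of 1.61 became 0.85 without length scaling, 1.20 per principal transcript and 1.43 over the 20 members whose recovered length was near the annotated one. For TALL104, Spearman's rho was 0.403 with EL4 and 0.371 with IVA12, where Pearson's r was 0.346 and 0.302.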

Other observations

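Among the isoforms of complex IV subunits that are known from particular tissues, and the related supercomplex factor COX7A2L, both human lines held little beyond COX7A2L, at 9.17 FPKM in Jurkat and 12.9 in TALL104. COX4I2, COX6A2, COX7A1, COX7B2 and COX8C were listed at 0 in both, and COX6B2 stood at 0.0377 and 0.00925 FPKM. IVA12 differed. Cox6a2, the isoform typical of muscle, was 55.6 FPKM from 956 reads in IVA12 and 4.12 FPKM from 90 reads in EL4. Cox7b2 was 22.7 FPKM from 311 reads in IVA12 and listed at 0 in EL4. Cox7a2l was 94.5 FPKM in IVA12 and 57.6 in EL4.

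Within complex IV the mitochondrially encoded mouse genes differed widely from each other. The catalytic subunit gene mt-Co1 was 6850 FPKM in EL4 and 4471 in IVA12, whereas mt-Co2 was 16.7 and 21.6 FPKM and mt-Co3 was 13.0 and 8.42. In the human lines MT-CO2 was 5517 FPKM in Jurkat and 7248 in TALL104, and MT-CO3 was 3207 and 4134. How reads shared with nuclear copies of mitochondrial DNA were counted is not given in the sources used here, and its part in these levels was not tested.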
